A study of Mus musculus with 4 samples.

Results

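A set of 10 genes that control TFEB from the lysosome was followed across the cells of the renal cortex in young and aged mice. Some of the mice had Tfeb deleted in the proximal tubule, in the S3 segment by the study's own staining. The set was chosen by name and holds 10 of the 24483 genes with at least 1 UMI (unique molecular identifier, a tag that counts 1 captured mRNA molecule) in a cell that was kept. Of these, 3 encode folliculin and its partners (Flcn, Fnip1, Fnip2), 3 encode Rag GTPases (Rraga, Rragc, Rragd), Mtor and Rptor encode the core of mTORC1, and Tsc1 and Tsc2 encode the complex that restrains it.

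When amino acids are plentiful, Rag GTPase heterodimers (RagA or RagB with RagC or RagD) recruit mTORC1 to the lysosomal surface, where it phosphorylates TFEB and keeps it in the cytoplasm. The complex of folliculin with FNIP1 or FNIP2 activates RagC and RagD and is needed for that phosphorylation of TFEB, whereas TSC1 and TSC2 act on a separate arm, by switching off the small GTPase RHEB. Rragd and Flcn are themselves known as transcriptional targets of TFEB and its relatives, so the pathway contains a feedback loop.

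The samples were scRNA-Seq libraries of dissected renal cortex from male mice, made by counting the 3′ ends of transcripts in droplets. There was 1 library for each of 4 conditions: young (6 weeks) Tfebfl/fl mice, young Tfebfl/fl KAP mice, aged (24 months) Tfebfl/fl mice and aged Tfebfl/fl KAP mice. All mice carried floxed Tfeb alleles. The KAP mice also carried Cre recombinase under the kidney androgen-regulated protein promoter, which is active in proximal tubular epithelial cells and, in the study's own staining, in the S3 segment. Cortex from 2 or 3 mice was pooled into each library, so differences between mice cannot be separated and no comparison between conditions has a replicate check. The intervals below are exact 95% intervals that cover counting error only, and no p-value is given.

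The 4 libraries held 8358 to 16945 barcodes, of which 5704 to 10045 were kept as cells, with a median of 11801 to 14735.5 UMIs per cell. Libraries shared 27 to 57 barcodes in pairs, of which 10 to 27 were kept in both. Cells were sorted into 36 clusters, and 16 classes could be named from marker genes; 12 of them had at least 20 cells in every library. Names carry "-like" because the clusters were rebuilt here, with the member genes left out of the clustering. The S3-like proximal tubule cells (1388 to 1932 per library) had a UMI of Slc7a13 in 86.7% and of Atp11a in 87.7% of cells, but other S3 genes (Slc22a19, Cyp7b1 and Bcat1) were found in at most 3.51% of them, and Slc34a1, from the S1/S2 marker list, stood at 3702 CPM in them (a gene's UMIs over all UMIs of the class, in the usual CPM scaling). The S1/S2-like cells (954 to 1680 per library) had Slc5a2 in 91.2% and Slc5a12 in 88.0% of cells. Slc22a6, also from the S1/S2 marker list, ran the other way, in 57.1% of S1/S2-like cells (253.6 CPM) and 97.5% of S3-like cells (800.2 CPM). Slc4a4, from the same list, was in 98.1% and 97.5% of these cells. Both names therefore rest on part of their marker lists. The S3-like class may hold S2 as well as S3 cells, which was not tested.

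Tfeb, the targeted gene, was read first. In S3-like cells it stood at 6.54 CPM in young Tfebfl/fl, 5.05 in young Tfebfl/fl KAP, 5.31 in aged Tfebfl/fl and 2.18 in aged Tfebfl/fl KAP mice. The KAP library was lower than its control by a log2 ratio of -0.37 (-0.66 to -0.09) in young and -1.28 (-1.69 to -0.89) in aged mice. The deposited matrices keep some entries at 0, described below. With each counted as 1 UMI these ratios were -0.04 (-0.30 to 0.22) and -0.97 (-1.30 to -0.64), so the young difference was lost under that count. In S1/S2-like cells Tfeb stood at 8.30, 9.07, 8.66 and 6.65 CPM in the same order, with KAP ratios of 0.13 (-0.14 to 0.40) in young and -0.38 (-0.73 to -0.04) in aged mice, or 0.21 and -0.09 (-0.40 to 0.21) with the entries at 0 counted. A 3′ count can come from outside the deleted exons, so these values do not measure how complete the deletion was. In 1 of the S3-like clusters, cluster 13, the aged KAP library was not lower, with 35 against 33 UMIs and a log2 ratio of 0.11 (-0.62 to 0.84), an interval that excludes the ratio of the whole class.

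Rragd encodes RagD, the alternative to RagC in the Rag heterodimer. Among the members its level varied most between cell classes, and the stretch upstream of its first exon is therefore shown, as 250 bases 5′ to 3′ from RefSeq (GRCm38.p6, plus strand, chr4:32982748-32982997).
Rragd: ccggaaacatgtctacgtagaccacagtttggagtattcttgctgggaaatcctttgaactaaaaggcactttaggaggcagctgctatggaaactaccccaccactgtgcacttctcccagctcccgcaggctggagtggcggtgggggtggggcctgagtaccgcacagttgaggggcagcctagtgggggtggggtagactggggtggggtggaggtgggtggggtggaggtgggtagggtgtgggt
TFEB is known to bind an E-box, CACGTG, and prefers it with flanking bases, as in GTCACGTG. Promoter windows from 250 bases before to 50 bases after the start were searched on both strands for CACGTG, for TCACGTG and for GTCACGTG, each of which contains the one before it. The Rragd window held none of them. CACGTG was present in 2 of the 10 member windows, those of Rragc and Fnip1, against 7.15% of 32851 windows in all. Both also matched TCACGTG (3.77% of all windows), and no member matched GTCACGTG (2.25%). In the Fnip1 stretch, 250 bases from the same source (plus strand, chr11:54437929-54438178), the E-box in capitals starts 75 bases before the RefSeq transcript start, which follows the printed stretch directly and differs from the gene start of the annotation given below.
Fnip1: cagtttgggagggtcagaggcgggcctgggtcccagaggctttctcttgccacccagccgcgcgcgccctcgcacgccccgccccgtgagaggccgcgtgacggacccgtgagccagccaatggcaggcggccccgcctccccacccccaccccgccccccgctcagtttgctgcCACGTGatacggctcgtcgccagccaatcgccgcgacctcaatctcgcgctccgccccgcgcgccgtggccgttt
In Rragc it starts 112 bases before the RefSeq start, and only the 30 bases around it are given (plus strand, chr4:123917309-123917338).
Rragc: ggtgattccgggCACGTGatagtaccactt
A match is a run of letters, and no binding was measured in these samples.

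Rragd (chr4:32983037-33022180, plus strand) was highest in classes of the distal nephron and collecting duct. Its mean level over the 4 libraries was 306.2 ± 21.7 CPM (SD, n = 4) in type A intercalated-like cells, 267.4 ± 12.8 in type B intercalated-like cells and 196.2 ± 8.50 in connecting tubule-like cells, and the ranges of these classes did not overlap with each other or with the class below. Principal-like cells followed at 129.9 ± 29.0 CPM, then distal convoluted tubule-like cells at 109.8 ± 15.3 and thick ascending limb-like cells at 100.4 ± 18.0, with overlapping ranges. Mural and mesangial-like cells, outside the nephron, had 52.0 ± 31.0 CPM, from 24.4 to 90.3 on 20 to 28 UMIs per library, which overlapped with the thick ascending limb-like range. S1/S2-like cells had 25.6 ± 5.20 CPM. S3-like cells (9.70 ± 4.71), podocyte-like cells (9.25 ± 4.09), endothelial-like cells (6.95 ± 2.02) and myeloid-like cells (4.38 ± 5.19) overlapped with one another at the low end. The SD here spans 4 different conditions, not replicates, and these levels are a description, since the classes were drawn from the same cells.

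The highest class mean of Rragd was 69.9 times the lowest, and its SD of log2 level over the 12 classes lay at the 92.7th percentile of 12342 genes. In type A intercalated-like cells the 4 libraries stood at 287.8, 289.7, 314.0 and 333.4 CPM in the order young Tfebfl/fl, young Tfebfl/fl KAP, aged Tfebfl/fl and aged Tfebfl/fl KAP, from 47 to 110 cells each. Between 87.2% and 91.8% of those cells had a Rragd UMI; after every cell was thinned to 2000 UMIs, the share was 37.0% to 42.9%. Over the same 12 classes, the genes with the pattern most like Rragd by Pearson correlation of log2(CPM + 1) were Slc25a23 (r = 0.979), Idh3a (0.971), Dixdc1 (0.967), Cyp2u1 (0.958) and Dap3 (0.958). Slc25a23 encodes a mitochondrial ATP-Mg/phosphate carrier and Idh3a a subunit of mitochondrial isocitrate dehydrogenase. The classes share the 4 libraries, so these correlations are descriptions.

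**Figure D1:**
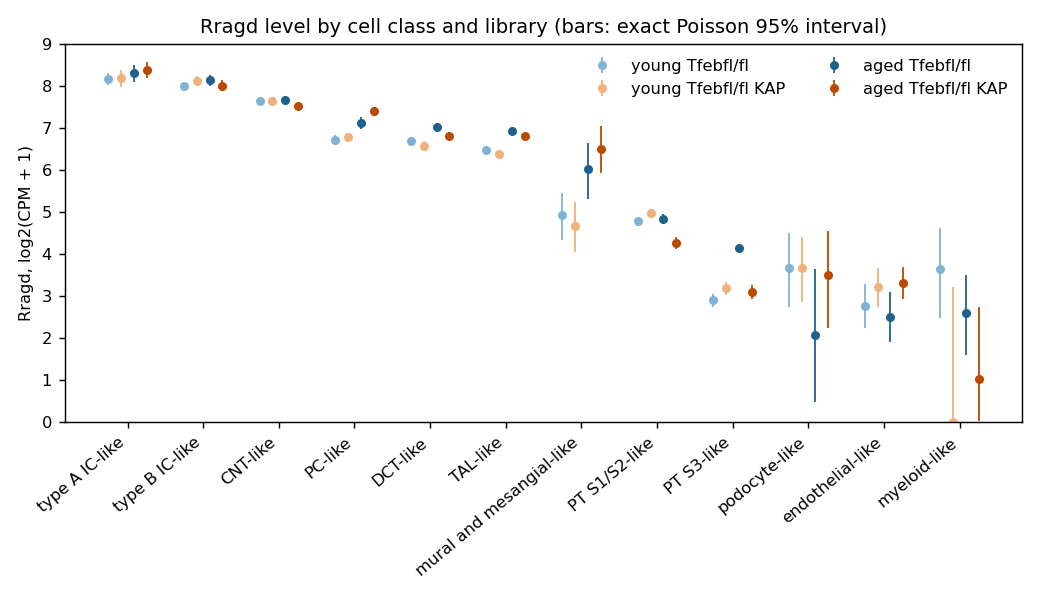
Level of Rragd, as log2(CPM + 1), in each of 12 cell classes (x axis), with 1 point per library and exact Poisson 95% intervals as bars. The intercalated-like and connecting tubule-like classes lie highest, and within S3-like cells the aged Tfebfl/fl library (16.7 CPM) stands above the other libraries (6.46 to 8.08 CPM).

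Flcn, Fnip1 and Fnip2, unlike Rragd, had their highest means in S1/S2-like cells. Flcn (chr11:59791408-59810016, minus strand) stood at 20.2 ± 1.61 CPM there, a range that overlapped with that of type B intercalated-like cells (17.7 ± 3.37), and at 10.4 ± 0.184 in S3-like cells, with the S1/S2-like value higher in 4 of 4 libraries by a mean log2 ratio of 0.96. Fnip1 (chr11:54438199-54518235, plus strand) was highest in S1/S2-like (63.2 ± 13.9) and myeloid-like cells (54.8 ± 11), whose ranges overlapped, and stood at 41.1 ± 3.44 in S3-like cells. Fnip2 (chr3:79455974-79567796, minus strand) had its highest means in S1/S2-like (41.4 ± 20.5) and S3-like cells (37.5 ± 6.09). Their ranges overlapped with each other and with that of mural and mesangial-like cells (28.5 ± 7.34). The S1/S2-like level was above the S3-like level in 2 of 4 libraries, the aged ones. Fnip2 was low in connecting tubule-like (6.00 ± 1.64), principal-like (5.23 ± 2.30) and podocyte-like cells (3.57 ± 3.52). Its highest class was 11.6 times its lowest, the widest range after Rragd. Of the classes richest in Rragd, type A intercalated-like (7.05 ± 2.21 CPM of Fnip2), connecting tubule-like and principal-like cells were among the poorest in Fnip2, and type B intercalated-like cells had 12.8 ± 8.38.

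Of the other Rag GTPases, Rraga (chr4:86575668-86577285, plus strand), which encodes RagA, was highest in endothelial-like cells at 70.4 ± 13.0 CPM and lay between 23.3 and 28.7 CPM in 6 of the tubule classes. Rragb, which encodes the closely related RagB, had 0 to 5 UMIs per library in S3-like cells; how reads that fit both of these similar genes were assigned is not stated. Rragc (chr4:123917446-123936997, plus strand), which encodes RagC, was highest in podocyte-like cells (79.2 ± 21.5) and lowest in S3-like cells (26.7 ± 1.12), and the S3-like range did not overlap with the next class. Rragc and Rragd are therefore unlike in their distribution: both encode the partner that folliculin acts on, but the spread of Rragc over classes was at the 15.4th percentile of genes.

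Mtor (chr4:148448611-148557683, plus strand), the kinase, was highest in the proximal tubule, at 57.7 ± 5.97 CPM in S3-like cells and 41.1 ± 8.97 in S1/S2-like cells, and neither range overlapped with the class below. The other 10 classes had means of 12.8 to 24.9 CPM. Rptor (chr11:119602905-119899576, plus strand), whose product Raptor presents substrates to the kinase, showed the opposite order at its low end, with 6.69 ± 0.524 CPM in S3-like and 9.13 ± 0.720 in S1/S2-like cells and its highest mean, 17.0 ± 0.621, in type B intercalated-like cells. Tsc1 (chr2:28641228-28691167, plus strand) was highest in thick ascending limb-like cells (33.5 ± 5.56) and low in S3-like cells (12.1 ± 1.42). Tsc2 (chr17:24595816-24632630, minus strand), the subunit with the RHEB-directed activity, varied less in the tubule, from 16.1 ± 0.509 in S3-like to 29.6 ± 4.94 in principal-like cells.

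**Figure D2:**
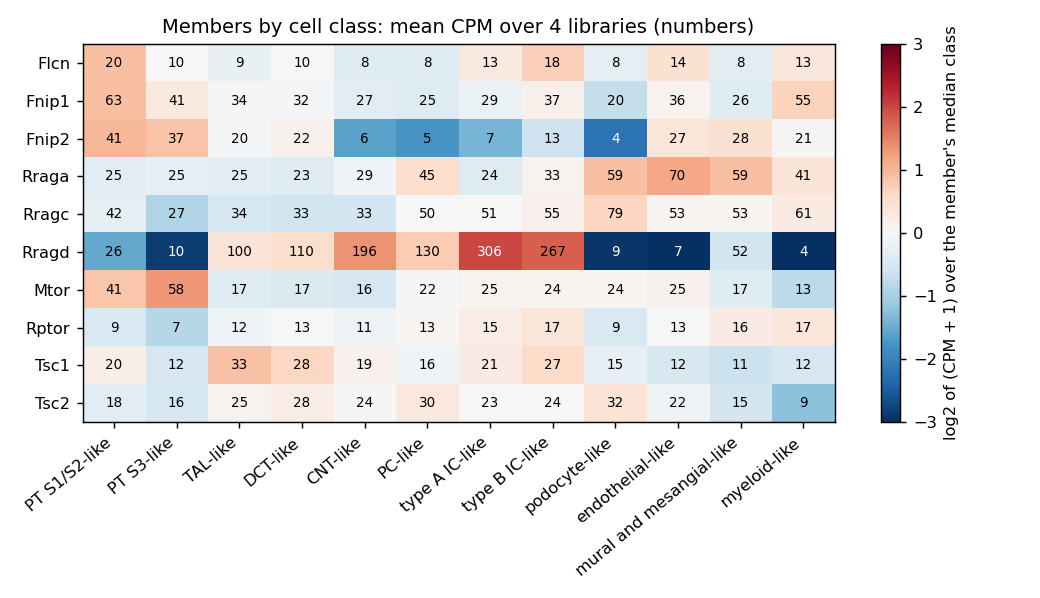
Mean CPM over the 4 libraries of each member (rows) in each of 12 cell classes (columns), printed in the cells; color gives the log2 of CPM + 1 over that member's median class. Rragd is high in the distal classes, Mtor in the proximal tubule and Fnip2 in the proximal tubule. Rptor and Rragc vary least, by SD of log2 level over the classes.

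To examine age, the aged Tfebfl/fl library was compared with the young one. A member was counted as past the fold where its log2 ratio of CPM was at least 0.5 in size, among genes with 50 or more UMIs over both libraries. In S3-like cells 1 of 10 members, Rragd, was past the fold, beside 16.0% of 11544 genes; the median log2 ratio was 0.10 for the members and 0.02 for all genes. In S1/S2-like cells 4 of 10 were, all higher with age (Fnip2, Mtor, Fnip1 and Tsc1), beside 23.4% of 11324 genes, with medians of 0.06 and 0.07. The share of members was near the background in S3-like cells and higher than it in S1/S2-like cells, in a set of 10 genes that gives a coarse share. Of the 4 members in S1/S2-like cells, Mtor and Tsc1 were under the fold in at least 1 of the alternatives run.

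In S3-like cells Rragd stood at 6.46 CPM (5.69 to 7.31) in young Tfebfl/fl mice, at 8.08 (7.14 to 9.11) in young Tfebfl/fl KAP mice, at 16.7 (15.5 to 18.0) in aged Tfebfl/fl mice and at 7.56 (6.66 to 8.55) in aged Tfebfl/fl KAP mice. The aged Tfebfl/fl library was high and the interval of no other library reached it. The values rest on 251, 267, 679 and 253 UMIs. The log2 ratio of aged over young was 1.37 (1.16 to 1.58) in Tfebfl/fl mice and -0.10 (-0.35 to 0.16) in Tfebfl/fl KAP mice. The aged ratio of Tfebfl/fl KAP over Tfebfl/fl was -1.14 (-1.36 to -0.93), and the young ratio was 0.32 (0.07 to 0.58).

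These low levels have to be read against free RNA. Endothelial-like cells, among the classes lowest in Rragd, had 5.85, 8.32, 4.69 and 8.96 CPM in the same library order. Only in the aged Tfebfl/fl library did the interval of the S3-like level lie wholly above that of endothelial-like cells. In the other libraries the intervals overlapped. The classes differ in depth, as given next, so this comparison cannot tell expression from free RNA, which was not tested. The share of S3-like cells with a Rragd UMI was 10.8%, 11.8%, 28.3% and 13.5%, at a median depth of 16220.5 to 23999 UMIs, and that of endothelial-like cells was 2.97%, 3.85%, 2.86% and 4.53%, at 3859 to 5110 UMIs. Thinned to 2000 UMIs per cell, the shares were 0.882%, 2.09%, 2.86% and 1.95% in S3-like cells, against 0.880%, 1.83%, 0.344% and 1.98% in endothelial-like cells. After thinning, the intervals of the aged Tfebfl/fl library (2.11% to 3.78%) and the aged Tfebfl/fl KAP library (1.28% to 2.82%) overlapped.

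The aged Tfebfl/fl library was the highest in 3 of the 4 S3-like clusters with cells enough to compare. The S3-like cluster 35, with the S3 gene Cyp7b1 among its leading genes, had 4 to 31 cells per library and was not compared. The log2 ratio of aged over young Tfebfl/fl mice was 1.75, 1.22, 1.29 and 1.78 in clusters 1, 2, 13 and 17, and that of aged Tfebfl/fl KAP over aged Tfebfl/fl mice was -0.83, -1.32, -1.21 and -1.40. Cluster 17 was the exception, with only 6 to 22 Rragd UMIs per library: its young ratio of Tfebfl/fl KAP over Tfebfl/fl was 1.98 (22 against 6 UMIs), above the age ratio there (20 against 6). In cluster 13 the KAP library was thus lower in Rragd but not in Tfeb. With doublets left in, the age ratio of Tfebfl/fl mice was 0.56, and on thinned counts the aged ratio of Tfebfl/fl KAP over Tfebfl/fl was -0.59.

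Markers of the Rragd-rich classes were also measured in S3-like cells. The 6 type A intercalated markers summed to 2.68, 3.72, 6.37 and 4.24 CPM in the library order above, highest in the library in which Rragd was highest, and 2 of the 6 were at 0 there. At the ratio of Rragd to these markers in type A intercalated-like cells (314.0 CPM of Rragd to 8716 CPM of markers in aged Tfebfl/fl mice), those sums equal 0.10 to 0.23 CPM of Rragd. The 7 thick ascending limb markers, summing to 308.7 to 452.1 CPM, equal 0.85 to 1.11 CPM of Rragd and were lower in the aged libraries. The distal convoluted tubule markers equal 0.70, 0.53, 0.88 and 0.81 CPM of Rragd in the library order, and the principal cell markers 0.15, 0.35, 0.31 and 0.52. Both of these Rragd equivalents were higher in each aged library than in the young library of the same genotype. The marker sums themselves did not all rise with age. Those of the distal convoluted tubule went from 87.8 to 79.3 CPM in Tfebfl/fl mice and from 67.1 to 76.3 in Tfebfl/fl KAP mice. Those of principal cells went from 43.1 to 59.9 CPM and from 96.2 to 76.7 in the same order. The 6 connecting tubule markers summed to 105.8 CPM in young Tfebfl/fl mice and to 1.82 to 3.96 CPM in the other libraries. All of these markers were counted after the study's correction for ambient RNA, which can remove them. The sums therefore cannot give the part of Rragd that came from free RNA, which was not tested.

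The background correction that the study applied before deposit also differed between libraries at this gene. The deposited matrices keep entries with a value of 0. They are taken here to mark a gene in a cell whose count had been removed, which no source used here states. Such entries made up 2.90% of entries in young Tfebfl/fl, 12.5% in young Tfebfl/fl KAP, 9.41% in aged Tfebfl/fl and 12.9% in aged Tfebfl/fl KAP mice. For Rragd in S3-like cells there were 36, 147, 138 and 155 such cells. With each counted as 1 UMI, the age ratio of Tfebfl/fl mice was 1.43, the aged ratio of Tfebfl/fl KAP over Tfebfl/fl was -0.73 and the young ratio was 0.74, past the fold. The aged Tfebfl/fl library remained the highest under that count. The count adds nothing to entries that stayed above 0, so it does not undo the correction.

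**Figure D3:**
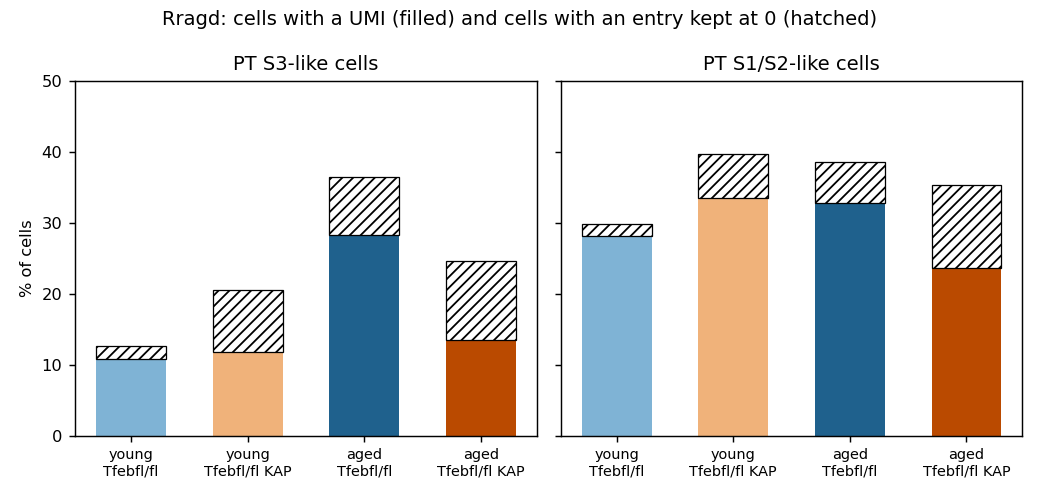
Share of cells (y axis, %) with a Rragd UMI (filled) and with a Rragd entry kept at 0 (hatched) in S3-like and S1/S2-like cells of each library (x axis). In S3-like cells the aged Tfebfl/fl library is highest with or without the entries at 0 (36.5% and 28.3%), and the young Tfebfl/fl library has the fewest such entries.

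In S1/S2-like cells Fnip2 led. It stood at 27.6 CPM (25.6 to 29.7) in young Tfebfl/fl, 22.3 (20.6 to 24.2) in young Tfebfl/fl KAP, 67.0 (63.4 to 70.8) in aged Tfebfl/fl and 48.7 (45.6 to 51.9) in aged Tfebfl/fl KAP mice. Both aged libraries were above both young ones. The log2 ratio of aged over young was 1.28 (1.15 to 1.42) in Tfebfl/fl mice and 1.12 (0.97 to 1.27) in Tfebfl/fl KAP mice, a pair of comparisons with no library in common. Within the S1/S2-like clusters 6, 7, 8 and 11 the first of these was 1.04, 1.27, 1.48 and 1.5, and the second 1.11, 0.88, 1.29 and 0.97. In S3-like cells the Fnip2 levels were 33.3, 33.0, 46.0 and 37.6 CPM, with age ratios of 0.47 (0.37 to 0.57) and 0.19 (0.07 to 0.31), both under the fold. Within S3-like clusters 1, 2, 13 and 17 the ratio of the Tfebfl/fl mice was 0.53, 0.51, 0.55 and 0.52, just past it.

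Fnip1 went the same way in S1/S2-like cells, from 52.0 CPM in young to 78.8 in aged Tfebfl/fl mice, and from 50.9 to 71.0 in Tfebfl/fl KAP mice, with log2 ratios of 0.60 (0.49 to 0.70) and 0.48 (0.37 to 0.59). Mtor went from 31.4 to 48.5 CPM and from 35.4 to 48.9 (0.63 and 0.46). Within clusters 6, 7 and 8 the Mtor ratio of Tfebfl/fl mice was 0.65, 0.26 (-0.03 to 0.56) and 0.67, so it was under the fold in cluster 7. In Tfebfl/fl KAP mice it was 0.36 in cluster 6 and 0.24 (-0.04 to 0.52) in cluster 7. Over the alternatives run, the pooled Mtor ratio of Tfebfl/fl mice ranged from 0.35 to 0.63. Tsc1 went from 17.4 to 25.8 and from 16.2 to 21.6 (0.56 and 0.42). In Tfebfl/fl mice the Tsc1 ratio was 0.99, 0.58 and 0.45 within clusters 6, 7 and 8, and its pooled value ranged from 0.49 to 0.85 over the alternatives. Flcn stood at 21.5, 18.2, 21.6 and 19.6 CPM in the library order, with age ratios of 0.01 (-0.18 to 0.19) and 0.10 (-0.09 to 0.30), and Rraga, Rragc, Rptor and Tsc2 had age ratios between -0.17 and 0.21. Of the 3 folliculin complex genes, Fnip2 and Fnip1 thus had higher levels in both aged libraries, and Flcn levels overlapped.

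Rragd in S1/S2-like cells was 26.5, 30.4, 27.4 and 18.2 CPM, with the aged Tfebfl/fl KAP library low. Its age ratio in Tfebfl/fl mice was 0.05 (-0.12 to 0.21) over all S1/S2-like cells but 0.32, 0.58, 0.30 and 0.23 within clusters 6, 7, 8 and 11. Clusters 8 and 11, in which most young Rragd UMIs lay, held 507 and 408 cells in young Tfebfl/fl mice against 194 and 154 in aged ones, so the pooled ratio also carries the mixture of clusters.

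The comparison of the Tfebfl/fl KAP libraries by age gave 0 of 10 members past the fold in S3-like cells, beside 14.7% of 11229 genes, and 2 in S1/S2-like cells, Fnip2 higher and Rragd lower (-0.74, -0.92 to -0.55), beside 23.5% of 11223 genes. The Rragd ratio was -0.52, -0.76, -0.26 (-0.57 to 0.05) and -0.28 (-0.79 to 0.20) within clusters 6, 7, 8 and 11, so it too carries the mixture of clusters and was under the fold in those that held most of the young UMIs. In S3-like cells Tsc1 was the nearest to the fold, at 0.40 (0.19 to 0.61).

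**Figure D4:**
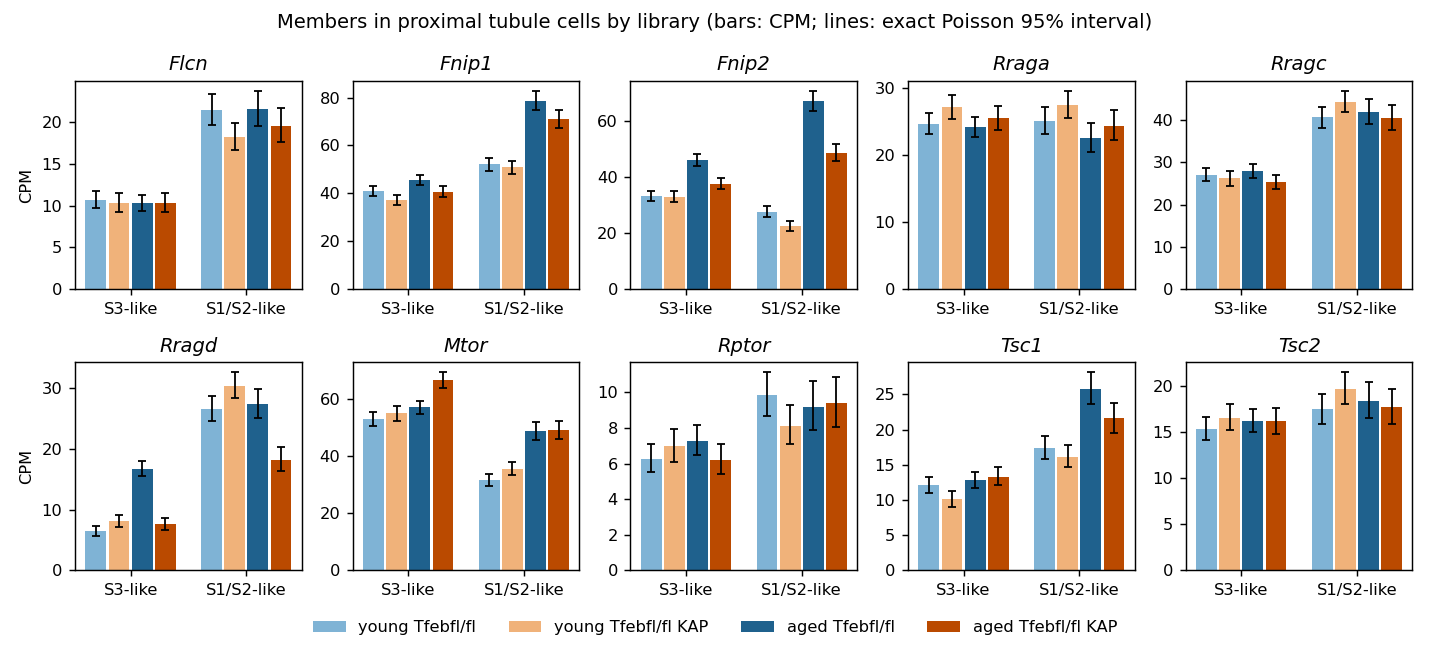
CPM (y axis) of each member in S3-like and S1/S2-like cells, with 1 bar per library and exact Poisson 95% intervals as lines. The aged Tfebfl/fl bar stands out for Rragd in S3-like cells, and both aged bars stand above both young bars for Fnip2, Fnip1, Mtor and Tsc1 in S1/S2-like cells.

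To examine TFEB deficiency, each Tfebfl/fl KAP library was compared with the Tfebfl/fl library of the same age. In aged mice 1 of 10 members was past the fold in S3-like cells, Rragd, beside 10.5% of 11450 genes, and 1 in S1/S2-like cells, again Rragd, lower by a log2 ratio of -0.59 (-0.79 to -0.39), beside 8.67% of 11030 genes. One member of 10 is close to these backgrounds. The aged S1/S2-like ratio was between -0.91 and -0.41 within the clusters, and -0.34, under the fold, with the entries at 0 counted as 1 UMI or on thinned counts. Among the other members in aged S3-like cells, Fnip2 (-0.29, -0.40 to -0.19), Fnip1 (-0.17, -0.27 to -0.06) and Rragc (-0.14, -0.27 to -0.01) were lower and Mtor was higher (0.22, 0.14 to 0.31), all under the fold, whereas Flcn stood at 0.01 (-0.20 to 0.22).

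In young mice no member was past the fold in S3-like cells, beside 9.66% of 11335 genes, or in S1/S2-like cells, beside 9.21% of 11447 genes. Rragd in young S3-like cells was higher by 0.32 in the KAP library, as given above, and Tsc1 was lower by -0.26 (-0.46 to -0.05). Fnip2 in young S1/S2-like cells was at -0.30 (-0.46 to -0.14) and Flcn at -0.24 (-0.42 to -0.06).

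**Figure D5:**
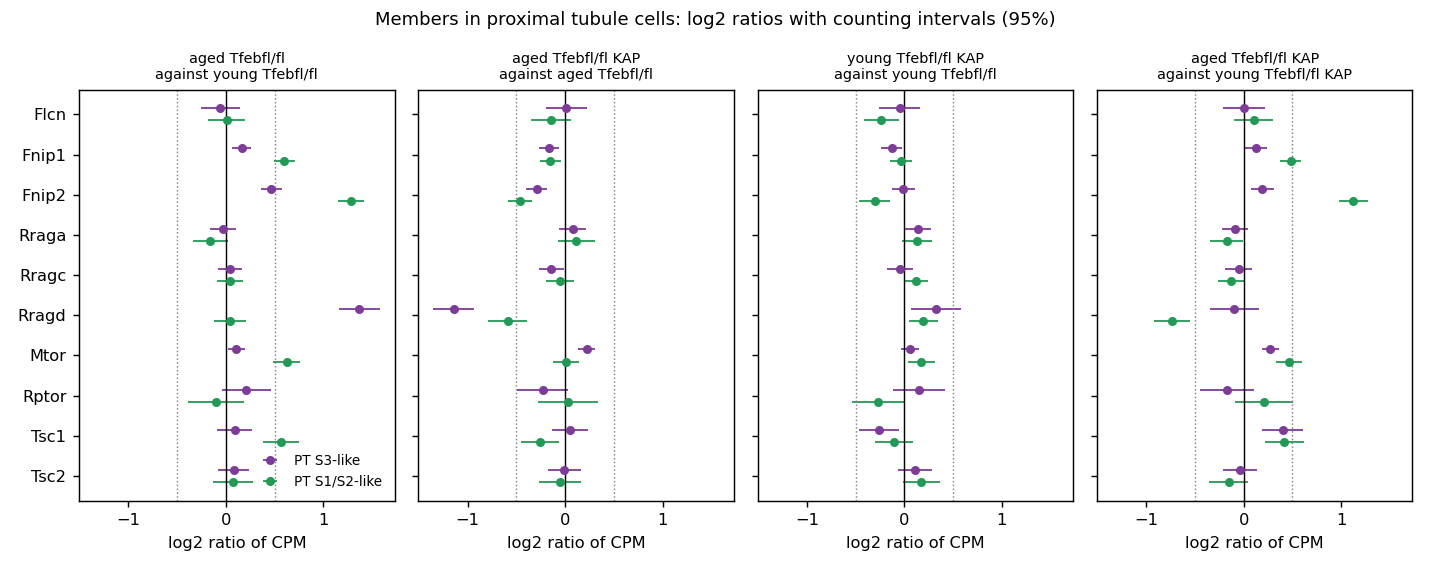
log2 ratios of CPM (x axis) of the 10 members in S3-like and S1/S2-like cells for 4 comparisons of libraries, with 95% counting intervals as bars. Most members lie near 0; Rragd in S3-like cells is at 1.37 for age in Tfebfl/fl mice and at -1.14 for aged Tfebfl/fl KAP against aged Tfebfl/fl mice.

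The distal classes, outside the proximal tubule, gave a comparison in cells where KAP-driven Cre is not known to act. With age in Tfebfl/fl mice, 0 of 10 members were past the fold in thick ascending limb-like cells, beside 16.3% of 11220 genes. In distal convoluted tubule-like cells 1 was (Flcn, from 9.14 to 14.2 CPM, 0.63), beside 24.0% of 10267 genes, and in connecting tubule-like cells 1 was (Tsc1, from 17.9 to 25.8 CPM, 0.53), beside 23.5% of 10225 genes. Rragd had age ratios of 0.46 (0.34 to 0.57), 0.35 (0.23 to 0.47) and 0.03 (-0.08 to 0.13) in these classes. Over the 8 classes with 50 or more Rragd UMIs the age ratio was above 0 in 8, with the interval above 0 in 4 of them. The median ratio of all genes was also above 0 in every class. It was 0.05 in thick ascending limb-like, 0.19 in distal convoluted tubule-like, 0.19 in connecting tubule-like and 0.15 in principal-like cells. A ratio above 0 is therefore not particular to Rragd. It lay below the median of all genes in connecting tubule-like, S1/S2-like, type A intercalated-like and type B intercalated-like cells. In principal-like cells Rragd stood at 104.8, 109.1, 138.6 and 167.1 CPM in the library order, both aged libraries above both young ones. Fnip2 did not rise with age in every class. In Tfebfl/fl mice it was higher in 6 of 8 classes (interval above 0 in 4) and lower in 2, both with the interval below 0. These 2 were distal convoluted tubule-like and type B intercalated-like cells. In the latter it was at -1.43, the 1 member of 10 past the fold beside 29.2% of 7719 genes.

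In aged mice Fnip2 was lower in the KAP library in all 3 of these distal classes. It went from 25.5 to 16.0 CPM in thick ascending limb-like cells (-0.67, -0.98 to -0.37), from 24.8 to 15.4 in distal convoluted tubule-like cells (-0.69, -0.99 to -0.39) and from 7.86 to 4.28 in connecting tubule-like cells (-0.88, -1.57 to -0.19). It was the 1 member past the fold in thick ascending limb-like cells, beside 7.22% of 10510 genes, and in distal convoluted tubule-like cells, beside 7.40% of 10449 genes. In connecting tubule-like cells Flcn (from 9.91 to 5.75 CPM, -0.79) and Tsc1 (from 25.8 to 16.1 CPM, -0.68) were past it too, making 3 of 10 beside 8.40% of 9946 genes. With entries at 0 counted as 1 UMI, Fnip2 was at -0.58, -0.64 and -0.59 (-1.18 to -0.0007) in the same order of classes, so the last interval all but reached 0. Flcn was at -0.70, Tsc1 at -0.62 and Rptor at -0.51 in connecting tubule-like cells under that count. Over all classes with enough UMIs, Fnip2 was lower in the aged KAP library in 6 of 7 (interval below 0 in 5) and Fnip1 in 9 of 9 (interval below 0 in 5). Rragd was lower there in 6 of 9 (interval below 0 in 4) and higher in 3 (interval above 0 in 2). It went from 120.4 to 110.6 CPM in thick ascending limb-like cells and from 130.2 to 112.1 in distal convoluted tubule-like cells. In connecting tubule-like cells Rragd went from 202.6 to 183.6 CPM. A lower Rragd was thus not confined to the proximal tubule. The median log2 ratio of all genes lay between -0.088 and 0.0004 over the 12 classes with at least 20 cells in every library. It was below 0 in all of them but endothelial-like cells, so a ratio below 0 is not particular to these genes. The classes also share the same pair of libraries. In these 3 distal classes the median log2 ratio of all genes lay between -0.06 and -0.03, and that of the members between -0.35 and -0.18. Principal-like cells went the other way, with a member median of 0.11 (5 of 9 higher and 4 lower) beside -0.05 for all genes.

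In young mice the KAP library was lower in distal convoluted tubule-like cells for Fnip2 (from 31.4 to 18.0 CPM, -0.80, -1.10 to -0.51) and Fnip1 (from 34.2 to 23.8 CPM, -0.52, -0.79 to -0.26), 2 of 10 members beside 7.94% of 9915 genes. With entries at 0 counted as 1 UMI, Fnip1 was at -0.42, under the fold, and Fnip2 at -0.75. No member was past the fold in thick ascending limb-like cells, beside 7.94% of 11557 genes, or in connecting tubule-like cells, beside 7.5% of 10400 genes. Fnip2 in thick ascending limb-like cells was at -0.47 (-0.69 to -0.26). In type B intercalated-like cells 3 of 10 members were lower past the fold (interval below 0 in 2), beside 13.3% of 7768 genes. Counted over all classes with enough UMIs, Fnip2 was lower in the young KAP library in 8 of 9 (interval below 0 in 4). Fnip1 was lower in 6 of 10 (interval below 0 in 4). A lower Fnip2 in the KAP library was thus seen at both ages. Each of these contrasts sets 1 library against another, and genotype and library cannot be told apart.

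The other genes of amino acid sensing and mTORC1 were read from a list of 32, of which 30 or 31 had enough UMIs. With age in Tfebfl/fl mice, 1 of 31 was higher and 2 were lower past the fold in S3-like cells, beside 16.0% of all genes, with a median log2 ratio of -0.07. Sesn2, which encodes a leucine sensor that inhibits mTORC1 signaling, was at 18.5 and 32.3 CPM (0.80, 0.67 to 0.94). Ddit4, which encodes the stress-induced mTORC1 inhibitor REDD1, was at 17.9 and 3.07 CPM (-2.55, -2.83 to -2.27), and Lamtor3, a subunit of the Ragulator that anchors the Rag GTPases, at 48.5 and 32.9 (-0.56). In S1/S2-like cells 4 of 31 were higher and 3 lower, beside 23.4% of all genes, with a median of -0.16. Both shares were near or below those of all genes. These included Sesn2 (1.54), Deptor (1.0), which encodes an mTOR-binding inhibitor, Castor1 (0.95), which encodes an arginine sensor, Wdr24 (0.66), a GATOR2 subunit, Ddit4 (-1.99) and Tbc1d7 (-0.64), the further subunit of the TSC complex.

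The Tfebfl/fl KAP libraries compared by age gave 2 of 31 past the fold in S3-like cells (14.7% of all genes), Castor1 (0.65) and Sesn2 (0.53), and 9 of 31 in S1/S2-like cells (23.5%), 4 higher and 5 lower, led by Castor1 (1.74), Sesn2 (1.15), Sesn3 (-0.88), Deptor (0.81), Tbc1d7 (-0.61) and Rictor (0.58). For TFEB deficiency in aged mice, 2 of 31 were past the fold in S3-like cells (10.5% of all genes), Ddit4 (from 3.07 to 12 CPM, 1.97, 1.67 to 2.27) and Castor1 (from 6.22 to 10.6 CPM, 0.77), and 1 in S1/S2-like cells (8.67%), Ddit4 (1.02). For young mice, 1 of 31 was past it in S3-like cells (9.66% of all genes), Ddit4 (-0.71), and 2 of 31 in S1/S2-like cells (9.21%), Nprl3 (-0.69), a GATOR1 subunit, and Rictor (-0.56), which defines mTORC2.

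Of the other MiT/TFE genes, the relatives of Tfeb, Tfe3 in S3-like cells was at 6.18, 7.26, 6.61 and 6.27 CPM and Mitf at 4.74, 4.57, 3.98 and 3.65, with every interval of the KAP ratios spanning 0. Tfec was at 35.1, 36.4, 23.4 and 24.9 CPM, lower in both aged libraries, with age ratios of -0.58 (-0.70 to -0.46) in Tfebfl/fl and -0.55 (-0.68 to -0.42) in Tfebfl/fl KAP mice.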

How the data were processed

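Renal cortex cells of 4 pooled libraries were measured with a 10x 3′ kit. Per the labels, reads were processed with Cell Ranger 6.0.0 on mm10 and analyzed in Seurat 4.4.0; no source used here names the annotation release. The authors corrected the counts for ambient RNA with SoupX, and the deposited matrices hold whole-number UMI counts that include entries at 0.

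Here cells with at least 1000 genes and at most 50% mitochondrial counts were kept and doublets removed at a rate of 0.8% per 1000 cells (scanpy 1.11.5), leaving 30191 of 48085 barcodes. Clusters came from 2000 variable genes, 30 principal components, Harmony-type integration and Leiden clustering (leidenalg 0.10.2, resolution 1.0); members, pathway and MiT/TFE genes were left out of the variable genes. Classes were named from fixed markers, with naming thresholds set after the clusters were seen. Counts were summed per class and library (CPM, exact Poisson interval); ratios carry exact binomial intervals (scipy 1.17.1). With 1 library per condition no test was made. Scripts were tested on simulated data. Coordinates are GRCm38.

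All 10 members, Tfeb, and the pathway genes past the fold with an interval off 0 in proximal tubule cells (at most 6 per comparison) are named, plus the 5 genes most like Rragd. Members and lists were chosen with earlier results of these data known. Counting entries at 0 as 1 UMI and ratios within clusters were alternatives chosen after seeing the data.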

Additional observations from a re-analysis of the deposited data

Results flagged for a closer look

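The log2 ratio of Rragd in Tfebfl/fl KAP over Tfebfl/fl mice had opposite signs at the 2 ages in proximal tubule cells. In S3-like cells it was 0.32 in young and -1.14 in aged mice. Both young S3-like levels overlapped those of endothelial-like cells, a comparison that cannot tell expression from free RNA. The young ratio was -0.26 with doublets left in, so its sign is not settled. In S1/S2-like cells the Rragd ratio was 0.20 in young and -0.59 in aged mice. Tfeb itself was at 0.13 and -0.38 there, or 0.21 and -0.09 with entries at 0 counted as 1 UMI. Genotype and library cannot be told apart, so these values are given for the libraries and their cause was not tested. With 1 library per condition the difference between the ages was not tested.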

How the results depend on the processing

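Over the alternatives run, 763 of 880 single-member log2 ratios in proximal tubule cells stayed within their counting interval and 117 left it. The alternative without a minimum of UMIs cannot change a ratio, so all of its ratios are among those that stayed. Over all alternatives the sign changed for 0 of the ratios past the fold but in 69 cases for ratios under it. The largest of these was Rragd in young S3-like cells (0.32, and -0.26 with doublets left in). The count of members past the fold in S3-like cells by age in Tfebfl/fl mice was 2 with doublets left in, at Leiden resolution 0.5, on thinned counts and as a mean over cells, where Fnip2 joined Rragd. For aged Tfebfl/fl KAP against aged Tfebfl/fl mice it was 2 in S3-like cells at 20% mitochondrial counts (with Rptor) and on thinned counts (with Tsc1). In S1/S2-like cells it was 2 at 20% mitochondrial counts, at resolution 0.5 and as a mean over cells (Fnip2, Rragd), 2 on thinned counts (Fnip2, Tsc2, without Rragd) and 0 with entries at 0 counted as 1 UMI. For young mice it was 1 in S3-like cells on thinned counts and with entries at 0 as 1 UMI (Rragd), and 1 in S1/S2-like cells at 20% mitochondrial counts (Rptor). By age in Tfebfl/fl KAP mice it was 1 in S3-like cells at 20% mitochondrial counts, at resolution 0.5 and as a mean over cells (Tsc1), 3 on thinned counts, and in S1/S2-like cells 1 with entries at 0 as 1 UMI and 5 as a mean over cells. The causes of these shifts were not tested. Rragd in S3-like cells ranged from 0.56 to 1.73 by age in Tfebfl/fl mice, from -1.20 to -0.59 for aged Tfebfl/fl KAP against aged Tfebfl/fl mice and from -0.26 to 1.25 for young mice. The highest class was kept by 10 members under 6 alternatives, by 9 without integration and on CPM without mitochondrially encoded genes, and by 7 on thinned counts. No paired analysis was possible because each condition had 1 library, and for the same reason no replicate could be left out. A thinned cell holds 2000 UMIs, at which Rragd in S3-like cells is near the level of 1 UMI in few cells.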
